A study of Mus musculus with 44 samples.

Results

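The small nucleolar RNA (snoRNA) host genes Snhg1, Snhg6 and Gas5 were followed across 22 BXD mouse strains in sorted blood-forming cells. They were chosen by their symbols, from earlier results on these same arrays in which strains differed at 2 of their probe sets, so their levels by strain are described here without a test. The 3 genes were measured by 6 probe sets: 97838_at for Snhg1, 96156_at and 161635_f_at for Snhg6, and 98531_g_at, 98530_at and 101885_at for Gas5. They are 3 of 8251 genes that had a probe set naming that gene alone. Of the 6 probe sets, 5 passed the filter on dim signal and entered the tests, and 101885_at did not.

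snoRNAs guide the chemical modification of ribosomal and spliceosomal RNAs, and in mammals most of them are cut out of the introns of longer host transcripts. In Snhg1, Snhg6 and Gas5 the introns carry the snoRNAs, while the spliced exons hold no long open reading frame. Gas5 is known for starting with a terminal oligopyrimidine (TOP) tract, the mark of messages whose translation follows growth signals, and its spliced RNA is degraded when it is translated and builds up in growth-arrested cells. In human cells spliced GAS5 RNA has also been described to bind the glucocorticoid receptor. The arrays read the exons of the hosts, not the snoRNAs.

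BXD strains are recombinant inbred lines, each homozygous for its own mix of C57BL/6 and DBA/2 chromosomes. For every sample the marrow of the femurs and tibiae of 3 females aged 3 to 6 months was pooled, and Lin-Sca-1+ c-kit+ cells were sorted, a fraction enriched in stem cells but not pure. Lineage-negative meant the 5% of cells least stained for CD3e, B220, CD11b, TER119 and Gr-1, and a sample yielded 16000 to 118000 cells. Each strain had 2 Affymetrix MG_U74Av2 arrays, numbered in the labels in 2 series that shared no strain: array series B held BXD1, BXD2, BXD5, BXD9, BXD14, BXD16, BXD18, BXD19, BXD21, BXD28, BXD34 and BXD39 on 24 arrays, and array series A held BXD6, BXD8, BXD11, BXD12, BXD31, BXD32, BXD33, BXD38, BXD40 and BXD42 on 20 arrays. No parental strain and no genotype was used here. Levels are log2 of the normalized intensity with a floor of 4, and a level may be compared between arrays for 1 probe set but not between probe sets. The labels do not say which pool lies behind which array. The p-values for strain differences and the SDs of 2 arrays therefore cover only the spread between these arrays. The p-values for array series and the SDs over strains cover the spread among strain means.

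Kit, which encodes the sort marker c-kit, averaged 9.44 and ranged from 8.13 to 10.22 over arrays, while Ly6a, which encodes Sca-1, had no probe set naming it alone. The progenitor genes Cd34 and Gata2, not used in the sort, averaged 8.74 and 9.11. Of genes for antigens used to deplete cells, Itgam averaged 4.47, at the floor on 12 of 44 arrays, and Cd3e 5.37. Some markers of mature cells gave clear signal, such as S100a8 at 10.98, Ighm at 10.58 and Hba-a1 at 9.29. Others were dim. Among T cell markers Cd3g averaged 7.09 and Cd4 7.17, but Cd8a averaged 5.34 and Cd3d lay at the floor on all 44 arrays. Of 8 B cell markers on the array only Ebf1 was dim, at the floor on 42 arrays, and the other 7 passed the filter. Of 12 neutrophil and monocyte markers 10 passed it, and of 6 erythroid markers 4 did. The erythroid marker Alas2 averaged 5.49, but Klf1 averaged 8.11. The arrays labelled BXD40 and BXD42 disagreed within each label. Over 272 probe sets that passed the strain effect when both strains were left out, the pair of BXD40 arrays correlated at r = -0.164 and the pair of BXD42 arrays at r = -0.111, against 0.515 to 0.868 for the pairs of the 20 other strains. With the arrays of a strain numbered in sample order, BXD40 replicate 1 correlated at 0.615 with BXD42 replicate 2, and BXD40 replicate 2 at 0.502 with BXD42 replicate 1. Fold ranges and SDs between strains of the host genes that rest on these 4 arrays are given with and without them. The SDs between arrays of a strain and the intraclass correlations use all 44 arrays. So do the correlations of the hosts with neighbours, other genes and lists, which were not repeated without BXD40 and BXD42.

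The start regions of the hosts are shown because the TOP tract is the feature the family is known for. The RefSeq promoter table of GRCm38.p6 held Snhg1 with 1 start and Gas5 with 2. Each line gives the 50 bases before and the 50 bases after the annotated start on the plus strand, and capitals mark a pyrimidine tract.
Snhg1, chr19:8723437-8723536: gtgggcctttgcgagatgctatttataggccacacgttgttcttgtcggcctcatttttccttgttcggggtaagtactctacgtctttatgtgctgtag
Gas5, downstream start, chr1:161035116-161035215: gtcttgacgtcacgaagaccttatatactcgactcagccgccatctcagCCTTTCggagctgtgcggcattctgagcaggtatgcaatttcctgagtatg
Gas5, upstream start, chr1:161034551-161034650: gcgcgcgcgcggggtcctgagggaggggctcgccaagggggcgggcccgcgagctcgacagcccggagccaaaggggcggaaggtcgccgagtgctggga
A tract was a C followed by C or T for at least 5 bases in all, beginning within 10 bases of the start and read on the transcribed strand alone. The downstream Gas5 start held one of 6 bases that begins 1 base before the annotated start, while the upstream Gas5 start and the Snhg1 start held none in this window. At the same place the Snhg1 start held cctc, a run shorter than the 5 bases required, so its call depends on that length. Of the 32851 promoters in the table, 10093 (30.7%) held such a tract, so its presence at 1 of these starts is a description and no more.

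Snhg1, the host of a cluster of C/D box snoRNAs, split the strains into a low and a high set with no strain mean between 9.45 and 10.41. The array values of 97838_at had a lowest of 8.57, a median of 10.61 and a highest of 11.34 over the 44 arrays, or 379.9 to 2886.8 in deposited intensity. In series B the low strains were BXD34 with 9.21 and 8.57 on its arrays, BXD1 with 9.15 and 8.64, and BXD39 with 9.05 and 9.08. The other 9 strains of series B lay between 10.74 ± 0.30 (BXD28) and 10.87 ± 0.18 (BXD5, SD, n = 2), so these 9 strains did not differ beyond the spread of their arrays. The lowest array of those 9 strains read 10.53, against 9.21 for the highest array of the 3 low ones.

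Series A also split into a low and a high set. The low strains were BXD8 with 8.70 and 8.76, BXD38 with 8.92 and 8.91, BXD31 with 9.11 on both arrays, and BXD6 with 9.57 and 9.32. Above a gap of 0.96 between strain means came BXD12 at 10.41 ± 0.08, BXD11 at 10.52 ± 0.15, BXD32 at 10.57 ± 0.11 and BXD33 at 10.58 ± 0.37. The arrays labelled BXD40 averaged 10.78 ± 0.38 and those labelled BXD42 11.07 ± 0.38, and all 4 of these arrays lay above the gap, so either reading of their labels leaves them in the high set. The lowest array above the gap read 10.31, against 9.57 for the highest below it.

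The spread of Snhg1 between strains was several times that between arrays. Within series the SD between strain means was 0.85, against 0.23 between the 2 arrays of a strain, and the intraclass correlation, the share of variance lying between strains, was 0.929 ± 0.019 (jackknife SE over 22 strains). The level was 3.95-fold higher in BXD5 than in BXD34 in series B, and 5.05-fold higher in the arrays labelled BXD42 than in BXD8 in series A. Leaving out BXD40 and BXD42 left BXD33 at 10.58 as the highest strain of series A, 3.6-fold above BXD8 at 8.73. The SD between strains was then 0.832. In bulk samples a lower level can mean fewer cells that express the gene or less RNA per cell, and these cannot be told apart.

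Snhg6, the host of a snoRNA in its intron and a gene studied mostly in human tumours, spread as widely at 96156_at. Over the 44 arrays the lowest value was 6.85, the median 8.76 and the highest 10.28, or 113.3 to 1291.8 in deposited intensity. In series B the 6 lower strains were BXD21 at 7.47 ± 0.15, BXD28 at 7.60 ± 0.02, BXD5 at 7.61 ± 0.09, BXD19 at 7.68 ± 0.13, BXD39 at 7.68 ± 0.12 and BXD16 at 8.04 ± 0.17. The 6 higher ones were BXD14 at 9.04 ± 0.23, BXD9 at 9.09 ± 0.09, BXD1 at 9.09 ± 0.17, BXD34 at 9.26 ± 0.63, BXD2 at 9.45 ± 0.10 and BXD18 at 9.76 ± 0.50. The lowest array of the higher strains read 8.82, against 8.16 for the highest array of the lower strains. Neighbours in the order differed by less than the spread of their arrays within each of these sets, apart from the step between BXD39 and BXD16.

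In series A the lower strains at 96156_at were BXD8 with 6.97 and 7.28, BXD11 with 7.52 and 6.85, BXD12 with 7.35 and 7.26, and BXD6 with 7.94 and 7.74. The higher ones ran in order BXD33 (8.65 ± 0.14), BXD32 (8.97 ± 0.27), BXD31 (9.00 ± 0.09), BXD38 (9.25 ± 0.14), and the arrays labelled BXD40 (9.46 ± 0.33) and BXD42 (9.84 ± 0.62). The gap between strain means was 0.81, and no array of a lower strain reached 8.55, the lowest array of a higher strain. The 4 arrays labelled BXD40 and BXD42 read between 9.23 and 10.28, all in the higher set.

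Within series the SD between strains at 96156_at was 0.94, against 0.28 between the arrays of a strain, with an intraclass correlation of 0.913 ± 0.024. The level was 4.91-fold higher in BXD18 than in BXD21 in series B and 6.56-fold higher in the arrays labelled BXD42 than in BXD8 in series A. Without BXD40 and BXD42 the series A range was 4.35-fold, BXD38 over BXD8, and the SD between strains was 0.879.

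**Figure D1:**
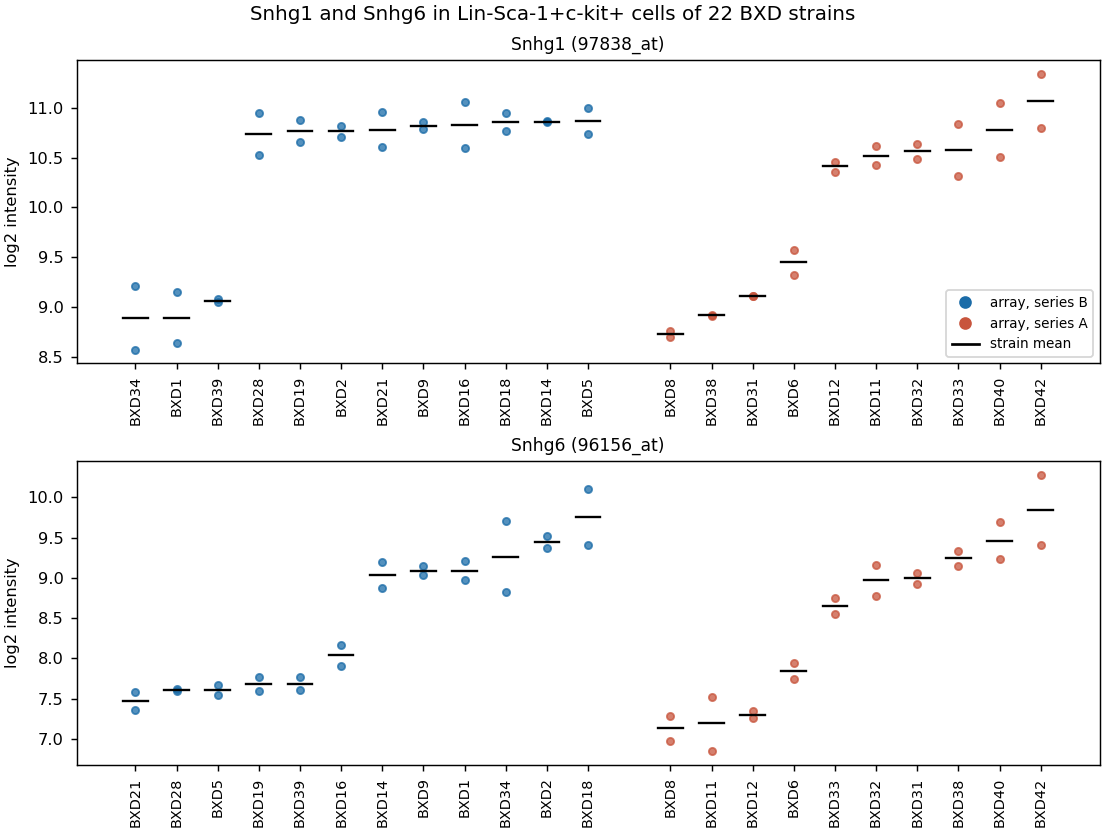
Level of Snhg1 (97838_at) and Snhg6 (96156_at) on each of 44 arrays, in log2 normalized intensity, with strains ordered by their mean within array series B (left) and array series A (right). Points are arrays and bars strain means; Snhg1 leaves an empty band between 9.57 and 10.31 across all strains, and Snhg6 steps up between BXD16 and BXD14 in series B and between BXD6 and BXD33 in series A.

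The other probe set for Snhg6, 161635_f_at, carries the suffix that marks probes matching a sequence family, and it did not show this pattern. Its arrays ran from 5.28 through a median of 6.44 to 7.28. The SD between strains was 0.32 and that between arrays of a strain 0.34, with an intraclass correlation of 0.282 ± 0.226. Without BXD40 and BXD42 the SD between strains was 0.297. Its highest strains were BXD34 (7.01 ± 0.02) in series B and the arrays labelled BXD42 (7.08 ± 0.29) in series A, where BXD38 (6.77) was highest with BXD40 and BXD42 left out. Over strain means centred on their series the probe sets 161635_f_at and 96156_at correlated at Pearson r = 0.355 and Spearman rho = 0.363 (22 strains), with r = 0.551 in series B alone and 0.190 in series A alone. Without BXD40 and BXD42 r was 0.267. The strain pattern of Snhg6 therefore rests on 96156_at, and the deposited table does not say where on the transcript the probes of either set lie.

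Across all tested probe sets the median SD between strains was 0.265 and the median SD between arrays of a strain 0.359, with a median intraclass correlation of 0.0386. Snhg1 stood at rank 61 of 7453 in its SD between strains and at rank 6 in its intraclass correlation, and 96156_at stood at ranks 42 and 8. The limma F test for strain differences within series called 209 of 7453 probe sets (2.80%) at an adjusted p below 0.05, and 2 of the 5 tested probe sets of the host genes were among them, 97838_at and 96156_at. Since these genes were chosen on that contrast, nothing is read from this count or from the ranks of these 2 probe sets.

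**Figure D2:**
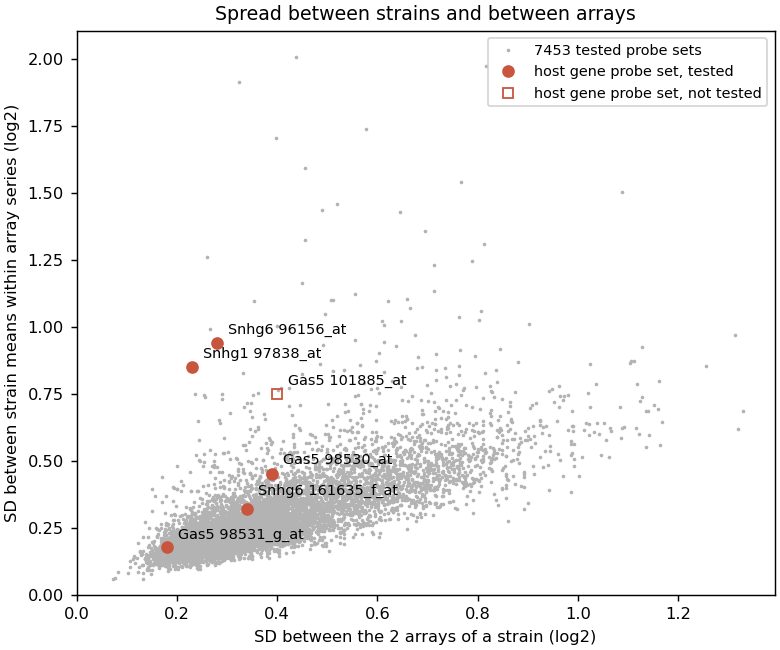
SD between strain means within array series (vertical axis) against SD between the 2 arrays of a strain (horizontal axis), both in log2 units, for 7453 tested probe sets (grey) and the 6 probe sets of Snhg1, Snhg6 and Gas5 (red). Snhg1 97838_at (0.85 by 0.23) and Snhg6 96156_at (0.94 by 0.28) stand above most tested probe sets, and the tested Gas5 probe sets and Snhg6 161635_f_at lie among them. The genes were chosen on strain differences in these arrays, so the high place of 97838_at and 96156_at is a description only.

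The low strains of Snhg1 and of Snhg6 were compared next. Taking the widest gap in each series as the divide, 7 strains were low in Snhg1 and 10 were low in Snhg6. BXD6, BXD8 and BXD39 were low in both, 4 strains (BXD1, BXD31, BXD34 and BXD38) were low in Snhg1 alone and 7 (BXD5, BXD11, BXD12, BXD16, BXD19, BXD21 and BXD28) in Snhg6 alone. The remaining 8 strains (BXD2, BXD9, BXD14, BXD18, BXD32, BXD33, BXD40 and BXD42) were low in neither. Over the 22 centred strain means 97838_at and 96156_at correlated at r = 0.0659 (Spearman rho 0.219), with r = -0.145 in series B and 0.282 in series A. Without BXD40 and BXD42 r was -0.130. These values describe points that share arrays.

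**Figure D3:**
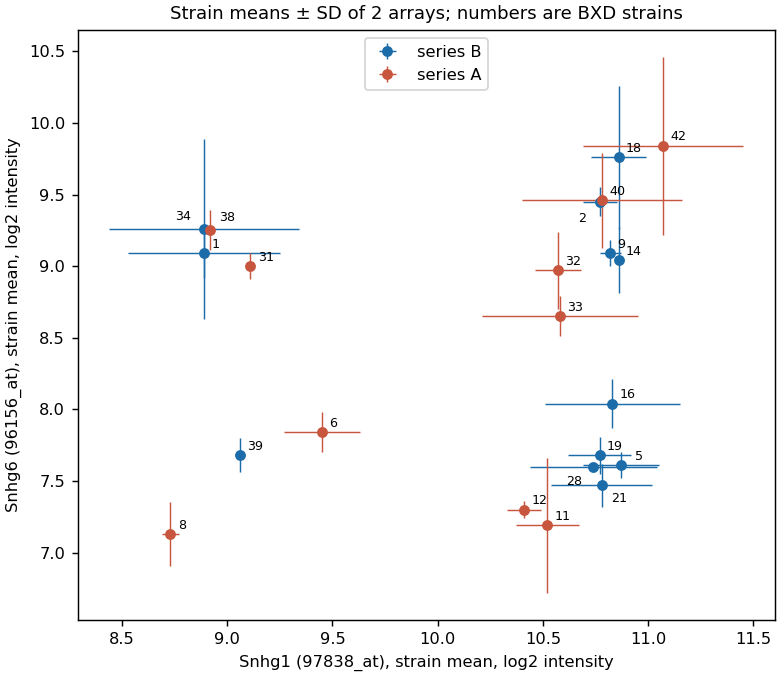
Strain means of Snhg6 (96156_at, vertical axis) against those of Snhg1 (97838_at, horizontal axis), in log2 normalized intensity, each with the SD of its 2 arrays, for 12 strains of array series B and 10 of array series A. All 4 combinations of low and high occur, with 3 strains low in both, 4 low in Snhg1 alone, 7 low in Snhg6 alone and 8 low in neither.

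Gas5, the growth arrest specific host, had its brightest signal at 98531_g_at, where the outcome turned on the normalization. After quantile normalization the probe set read 12.09 on its lowest array, 12.70 at the median and 13.08 on its highest, and its SD was 0.18 both between strains and between arrays of a strain (intraclass correlation 0.349 ± 0.186). In the deposited values, which ran from 4491.1 to 11753.4 on other arrays than these, the SD between strains was 0.287 and that between arrays 0.196 on the log2 scale. The level was 1.48-fold higher in BXD14 (12.95 ± 0.18) than in BXD34 (12.38 ± 0.42) in series B after normalization, and 1.62-fold higher in BXD16 than in BXD28 as deposited. BXD34 owed its place to 1 array at 12.09, beside 12.67 on the other, and as deposited the same arrays read 12.72 and 12.48. In series A it was 1.51-fold higher in the arrays labelled BXD42 (12.88 ± 0.08) than in BXD11 (12.28 ± 0.07) after normalization, and BXD12 at 12.86 was the highest strain with BXD40 and BXD42 left out. As deposited the series A range was 2.20-fold, the arrays labelled BXD42 over BXD32, or 1.66-fold, BXD6 over BXD32, without BXD40 and BXD42. The order of strains at this probe set is therefore not fixed by these data. Its correlations below with lists and with genes other than the hosts used the normalized values alone. The suffix of the probe set marks probes shared with another set.

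98530_at was designed on the same source sequence as 98531_g_at and spread more. Its arrays ran from 6.91 through a median of 8.45 to 9.30, with an SD between strains of 0.45 against 0.39 between the arrays of a strain and an intraclass correlation of 0.463 ± 0.183. In series B the level was 2.46-fold higher in BXD5 (9.24 ± 0.08) than in BXD19 (7.94 ± 0.14), and BXD18, with 7.86 and 8.13 on its arrays, stood beside BXD19 below a step of 0.50. In series A it was 3.24-fold higher in BXD33 (8.84 ± 0.36) than in BXD12 (7.15 ± 0.15). The arrays labelled BXD42 read 8.97 and 7.67 and those of BXD11 read 7.99 and 6.91, so single strains were poorly fixed at this probe set. Leaving out BXD40 and BXD42 gave an SD between strains of 0.457 and left the range in series A as it was.

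101885_at was dim, at 4.85 on average, and 11 of 44 arrays lay at the floor. Both arrays were at the floor in BXD1 and BXD2 of series B and in BXD38 and BXD6 of series A, and their true levels may lie anywhere below it. The highest strains were BXD28 at 5.82 ± 0.24 in series B, at least 3.53-fold above BXD1, and BXD33 at 6.05 ± 0.12 in series A, at least 4.14-fold above BXD38. The highest deposited intensity of this probe set was 88.1, so signal near the background limits any reading of its strain order.

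The 3 Gas5 probe sets did not rank the strains alike. Over the 22 centred strain means 98530_at and 98531_g_at correlated at r = -0.0946, 101885_at and 98530_at at r = 0.225, and 101885_at and 98531_g_at at r = -0.511, with -0.555 in series B and -0.483 in series A. With Snhg1, 98531_g_at correlated at 0.174, and at 0.00666 without BXD40 and BXD42. With Snhg6 96156_at it correlated at 0.0313, but at 0.328 in the deposited values and at -0.212 without BXD40 and BXD42, and 98530_at at -0.0218 with Snhg1 and at 0.197 with 96156_at.

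**Figure D4:**
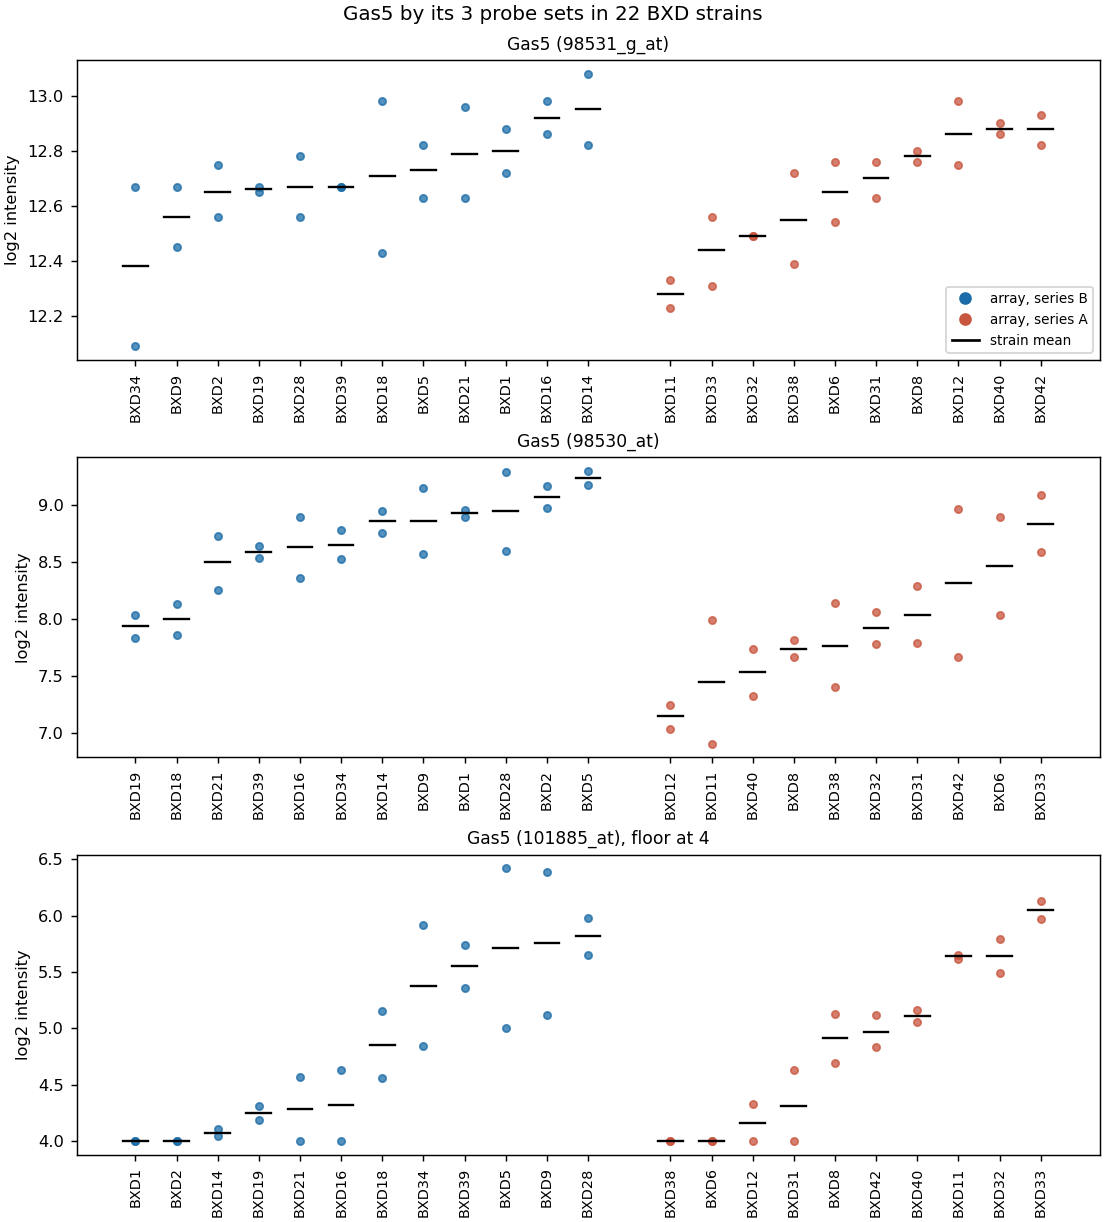
Level of Gas5 on each of 44 arrays by its 3 probe sets, in log2 normalized intensity, with strains ordered by their mean within array series B (left) and array series A (right). Points are arrays and bars strain means. The panels have their own scales and their own strain orders, and 101885_at has 11 arrays with a deposited intensity at or under the floor of 16.

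The array series was not used to choose these genes, so the difference between series could be tested on the 22 strain means with limma. Gas5 at 98530_at was the one member that passed. Its strain means ran from 7.94 through a median of 8.75 to 9.24 in series B, against 7.15, 7.85 and 8.84 in series A. All 12 strains of series B lay above the median of series A and 6 of them lay above every strain of series A. It averaged 8.69 ± 0.40 in series B (SD, n = 12) and 7.92 ± 0.51 in series A (SD, n = 10), a difference of 0.76 ± 0.18 (SE), or 1.69-fold (limma on strain means, adjusted p = 0.00459).

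The other probe sets did not pass this test. Gas5 98531_g_at averaged 12.71 ± 0.15 in series B and 12.65 ± 0.21 in series A, a difference of 0.06 ± 0.08 (limma adjusted p = 0.663), and whether it differed from the shift of 98530_at was not tested. Snhg1 averaged 10.35 ± 0.85 in series B and 10.01 ± 0.86 in series A, a difference of 0.33 ± 0.34 (limma adjusted p = 0.507). Snhg6 at 96156_at averaged 8.48 ± 0.87 in series B and 8.46 ± 1.01 in series A (0.02 ± 0.37, limma adjusted p = 0.980), and 161635_f_at averaged 6.37 ± 0.29 in series B and 6.40 ± 0.36 in series A (-0.03 ± 0.13, limma adjusted p = 0.891). Without BXD40 and BXD42 the difference was 0.561 for Snhg1 and 0.314 for 96156_at, and neither passed.

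Series differences were common on these arrays, with 1628 of 7453 probe sets (21.8%) past the test in either direction and 802 (10.8%) higher in series B, so 1 of 5 tested host gene probe sets is close to the background. Kit, the surface receptor used in the sort, was among those higher in series B (9.71 in series B and 9.10 in series A, a difference of 0.61 ± 0.11, limma adjusted p = 0.000389). Of the cell type markers, Mpo (1.01 ± 0.30) and Cd79a (0.57 ± 0.14) were also higher in series B, and Tal1 (-0.92 ± 0.21), Camp (-0.90 ± 0.16), Gp9 (-0.88 ± 0.15), S100a9 (-0.51 ± 0.17) and Cd79b (-0.48 ± 0.09) were lower, each past the limma threshold. Of 15 tested cell cycle genes Mcm3 was higher in series B and Ccnb2, Cdk1, Cdc20 and Rrm2 were lower. Of 16 tested TOP genes Eif3e, Eif4b, Nap1l1 and Btf3 were higher and none was lower. Of 5 stress genes targeted by nonsense-mediated decay Atf3 and Gadd45a were higher and Ddit3 was lower. Among ribosome biogenesis factors Wdr12 and Rrn3 were higher, among decay factors Gspt1 higher and Etf1 lower, and among glucocorticoid receptor targets Fkbp4 was lower. The part of any of these genes in the Gas5 difference was not tested. No strain had arrays in both series, so the series and the set of strains it holds cannot be told apart beyond the spread among strain means.

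**Figure D5:**
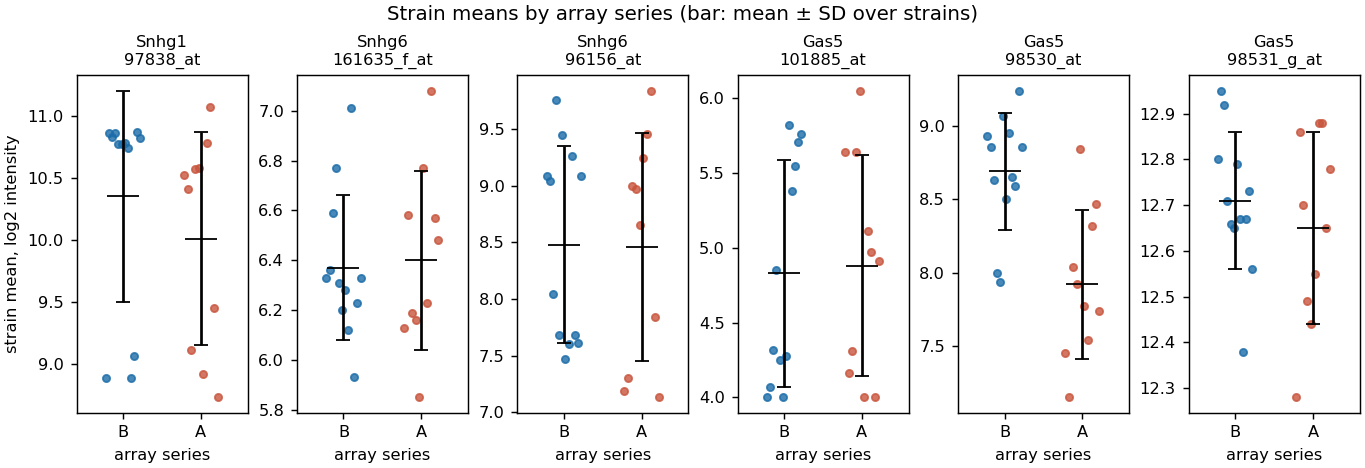
Strain means of the 6 probe sets of Snhg1, Snhg6 and Gas5 in array series B (left in each panel, 12 strains) and array series A (right, 10 strains), in log2 normalized intensity, with the mean and SD over strains. Gas5 98530_at averages 8.69 in series B and 7.92 in series A, and the strain means of the other probe sets overlap widely.

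The nearest tested genes on either side of the hosts correlated with them between -0.458 and 0.172. Slc3a2, the heavy chain of amino acid transporters, lies directly beside Snhg1 on chromosome 19 in the RefSeq gene order and correlated with it at r = 0.172 over the centred strain means. Stx5a, a syntaxin of the Golgi, lies 10 annotated genes away on the other side (r = 0.162). Rrs1, a ribosome biogenesis factor, and Cops5, a subunit of the COP9 signalosome, are the nearest tested genes on either side of Snhg6 on chromosome 1, and correlated with 96156_at at -0.129 and -0.0797. Zbtb37, a zinc finger gene directly beside Gas5 on chromosome 1, correlated at -0.458 with 98530_at and -0.189 with 98531_g_at, and Cenpl, a centromere protein gene, at -0.0695 and 0.168. None of these 6 neighbours passed the strain effect (limma adjusted p between 0.597 for Cenpl and 0.974 for Cops5).

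The genes most like each probe set were taken by Pearson r over the 22 centred strain means among 5621 other tested genes. For Snhg1 they were Timp2, an inhibitor of metalloproteinases (0.757), Tgfbr3, a co-receptor for TGF-beta (0.725), Faf1 (0.676), Aqp8, a water channel (0.645), and Htr5b, a serotonin receptor gene (0.633). None of the 5 lay on chromosome 19, which held 3.59% of those genes, and none passed the strain effect. The r values of Snhg1 with single genes reached -0.668 in the other direction, with Inpp5d. For 96156_at they were 6430706D22Rik (0.718), Myl10, a myosin light chain (0.645), Dtd2 (0.643), Trim11 (0.625) and Mia (0.613), and the first 2 of these passed the strain effect themselves (limma adjusted p = 2.7e-05 and 5.3e-05).

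For the other Snhg6 probe set, 161635_f_at, the most alike genes were Tomm7 of the mitochondrial import complex (0.798), Uqcrh and Uqcr10 of respiratory complex III (0.747 and 0.717), Cox7b of cytochrome oxidase (0.707) and Vps29 of the retromer (0.693). For Gas5 98530_at they were Mdm4, an inhibitor of p53 (0.816), Hnrnpu (0.755), the sugar transferase Ogt (0.736), the kinase Mapk8 (0.733) and the demethylase Kdm3a (0.732). Mdm4 and Hnrnpu lie on chromosome 1 with Gas5, with 412 and 426 annotated genes between, and chromosome 1 held 5.59% of the genes compared. The r values of 98530_at reached -0.805 in the other direction, with Tcea2. For 98531_g_at they were Aldh9a1, an aldehyde dehydrogenase (0.758), Ahcy (0.735), Tspan6 (0.711), Syce2 (0.704) and Crip1 (0.694). Aldh9a1 also lies on chromosome 1, 152 annotated genes from Gas5, and passed the strain effect (limma adjusted p = 6.7e-05). No gene stood in the lists of more than 1 probe set.

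Few other noncoding snoRNA hosts could be read. Of 18 listed, 3 had a probe set of their own and 2 were tested, Snhg5 and Epb41l4aos, while Snhg11 lay at the floor on all 44 arrays. Neither passed the strain effect with limma or without its moderated variance (the ordinary F test), and 1 of them had an unadjusted p below 0.05. The share of all tested probe sets with an unadjusted p below 0.05 was not counted, so nothing is read from such counts here or below. Snhg5, another TOP host, ranged from 6.90 to 8.81 over arrays (smallest adjusted p of the list, limma 0.205) and was 2.12-fold higher in BXD28 than in BXD19 in series B and 2.45-fold higher in the arrays labelled BXD42 than in BXD12 in series A, or 2.18-fold higher in BXD6 than in BXD12 without BXD40 and BXD42. It correlated at 0.636 with Gas5 98530_at, but at 0.0388 with Gas5 98531_g_at and at 0.300 with 101885_at. Its correlation was 0.326 with Snhg6 96156_at and 0.248 with Snhg1. Of 16 other long noncoding RNAs listed, 4 were on the array and 2 tested; neither passed by either test, 1 had an unadjusted p below 0.05, and Xist, the X-inactivation RNA, had the smallest adjusted p (limma 0.284).

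Of 36 protein-coding snoRNA hosts listed, most of them ribosomal protein and nucleolar genes, 18 were tested. None passed the strain effect in the main limma fit, 5 had an unadjusted p below 0.05, and 1 passed the ordinary F test. Rpsa, a ribosomal protein gene, had the smallest adjusted p (limma 0.0613) and passed in 10 of 54 alternatives. It was 2.70-fold higher in BXD2 than in BXD14 in series B and 1.28-fold higher in BXD31 than in BXD8 in series A. The median SD between strains of these hosts was 0.255, beside 0.265 over all tested probe sets. Between series, Rps3 (0.34 ± 0.06, limma adjusted p = 0.000716) and Eif4a2 (0.51 ± 0.13, limma adjusted p = 0.0065) were higher in series B, and Hspa9 was lower (-0.40 ± 0.09, limma adjusted p = 0.00277). Their mean level over strains correlated at -0.142 with Snhg1, at 0.0486 with Snhg6 96156_at, at 0.199 with Gas5 98530_at and at -0.112 with 98531_g_at.

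Among snoRNP proteins, which bind the finished snoRNAs, 1 of 10 tested passed the strain effect, beside 2.80% of all tested probe sets. A call of 1 gene is not read as a result about its list here or below. The gene was Nop10, a subunit of the pseudouridylation complex. Nop10 was 2.16-fold higher in BXD18 (10.15) than in BXD19 (9.04) in series B and 1.79-fold higher in BXD6 (9.97) than in the arrays labelled BXD40 (9.13) in series A, or 1.76-fold higher in BXD6 than in BXD8 without BXD40 and BXD42 (limma adjusted p = 0.0192). Without BXD19 replicate 2 the adjusted p was 0.0556, and it was 0.110 in series B alone and 0.561 in series A alone. Nop10 correlated at 0.403 with Snhg6 96156_at and at -0.0711 with Snhg1. Fbl, the methyltransferase of these particles, had a strain effect adjusted p of 0.937 (limma). Between series, Nop58, a core protein of C/D box particles, was higher in series B (0.63 ± 0.09, limma adjusted p = 4.7e-05) and Gar1, of the pseudouridylation complex, was lower (-0.39 ± 0.09, limma adjusted p = 0.00275).

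Lists of genes tied to how these RNAs are made and lost were counted likewise. None of 16 tested translation factors and other TOP genes passed (smallest adjusted p 0.325 for Eef1b2 with limma, 1 with an unadjusted p below 0.05), none of 20 ribosome biogenesis factors (0.636 for Pes1, none unadjusted), and none of 5 nonsense-mediated decay factors (0.470 for Smg5, none unadjusted). The ordinary F test called none of these either. Of 5 stress genes whose messages are known targets of nonsense-mediated decay none passed with limma or the ordinary F test (0.309 for Atf3, 1 unadjusted), and their mean level correlated at -0.464 with Snhg1 and at 0.311 with 96156_at. For the TOP genes these values were -0.0611 and 0.209, and for the decay factors -0.103 and -0.137.

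Among glucocorticoid receptor target genes 1 of 8 tested passed the strain effect, beside 2.80% of all tested probe sets. This gene was Mt2, a metallothionein (limma adjusted p = 0.00936). It was 2.72-fold higher in BXD34 than in BXD21 in series B and 2.49-fold higher in BXD12 than in BXD33 in series A, and its adjusted p was 0.133 in series B alone and 0.243 in series A alone. The receptor gene Nr3c1 was itself too dim to be tested, at 4.74 on average. The mean level of the tested targets correlated at -0.504 with Gas5 98531_g_at, at -0.257 with 98530_at, at 0.422 with 101885_at and at 0.203 with Snhg1. The value for 98531_g_at, whose strain order turned on the normalization, is from the normalized values alone. None of 9 growth arrest and mTOR pathway genes passed with or without moderation (0.567 for Eif4ebp1 with limma, none unadjusted), while between series Myc (0.66 ± 0.15, limma adjusted p = 0.00328) and Eif4ebp2 (0.24 ± 0.07, limma adjusted p = 0.019) were higher in series B and Mtor was lower (-0.32 ± 0.10, limma adjusted p = 0.0194).

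Markers of the sorted cells and of other blood cells were counted against the 2.80% of all probe sets that passed the strain effect. Among 6 stem and progenitor markers Flt3 and Procr passed (limma adjusted p = 0.0404 and 0.00253), and Flt3 did not pass in 31 of 54 alternatives. Among 10 neutrophil and monocyte markers Mpo, S100a8, S100a9, Camp and Ccr2 passed with all strains, 1 in series B alone and 0 in series A alone, and Mpo did not pass in 24 of 54 alternatives. Hba-a1 passed among 4 erythroid markers, Vwf among 2 megakaryocyte markers and Ighm among 7 B cell markers. None of 4 T and NK cell markers, 2 mast cell, basophil and eosinophil markers or 15 cell cycle genes passed with limma, with 1, 1 and 6 of them at an unadjusted p below 0.05 and 0, 0 and 2 past the ordinary F test. Snhg1 correlated with the mean level of these lists between -0.245 (stem and progenitor markers) and 0.315 (T and NK markers), and Snhg6 96156_at between -0.294 (cell cycle genes) and 0.480 (T and NK markers). The mean of the tested T and NK markers ranged from 6.20 to 7.34 over arrays. These 4 markers differed singly: with 96156_at Gzmb correlated at 0.475, Cd4 at 0.302, Cd3g at 0.0269 and Klrd1 at -0.126. Gas5 98531_g_at correlated at 0.511 with the cell cycle genes, whose mean ranged from 8.40 to 9.06, in the normalized values alone. Gas5 98530_at correlated at 0.506 with the B cell markers, whose mean ranged from 7.55 to 8.37. Single tested B cell markers ran from 0.495 (Ighm) to -0.214 (Igll1) with 98530_at. The part of these cells in the strain levels of the host genes was not tested.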

How the data were processed

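Intensities on a linear scale were taken from the authors' deposited table of 12488 probe sets on 44 arrays. The 2% trimmed mean was 200.071 to 200.092 on every array, and all columns belonged to the 44 arrays. The software behind the summary values is not given in the sources used here. Intensities under 16 were set to 16, log2 was taken and arrays were quantile normalized, since their medians ran from 6.554 to 6.829. Control probe sets (66) were left out, and those under the 40th percentile of mean level, which left 7453. The platform's table gave 1 symbol for 10833 probe sets, several for 396 and none for 1193; only the first were named, with the brightest tested one per gene (5624 genes).

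An F test for strain differences within array series, and a test of array series on the 22 strain means, were run with limma (version 3.58.1; R 4.3.3), with Benjamini-Hochberg adjustment over all tested probe sets (threshold 0.05). 101885_at had no test in these fits. Scripts were tested on simulated data. Correlations used strain means centred on their series, and levels of lists the mean of tested members. Array number limits the precision of every value. The genes named were the hosts, the 5 tested genes most like each tested probe set, the nearest tested neighbours, and list members past the strain effect or, failing that, with the smallest adjusted p. Markers and list members called between series were added after their values were seen. So were Fbl, Tcea2, Cd3g, Nr3c1, Inpp5d, Epb41l4aos, Snhg11, Cd34, Gata2, Itgam and Cd3e. The same holds for Cd3d, Cd4, Cd8a, Klrd1, Ebf1, Igll1, Alas2 and Klf1. The hosts and lists were chosen with earlier results of these data known. Alternatives changed the normalization, floor, log transform, filter, test, array series and the arrays included.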

Additional observations from a re-analysis of the deposited data

How the results depend on the processing

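The count of probe sets past the strain effect was 209, and it moved by over 1.5 times in series A alone (54) and with the array series not modelled (483); with 1 array left out it ranged from 171 to 249, and the other settings gave counts within 1.5 times. The host genes were chosen on this contrast, so their own calls are not set out by setting. The array series effect gave 1628 probe sets, 1348 to 1700 with 1 array left out and 1160 to 2241 otherwise. The series difference of Gas5 98530_at stayed between 0.696 and 0.826 (limma adjusted p 0.00235 to 0.0163) with 1 array left out and between 0.719 and 0.767 in the other settings. That of 161635_f_at, which never passed, changed sign in the deposited values (0.075), without BXD40 and BXD42 (0.03) and without 1 of 3 single arrays (range -0.087 to 0.022), and that of 96156_at without 1 of 6 single arrays (range -0.027 to 0.061). The SD between strains ranged from 0.829 to 0.883 for Snhg1 and from 0.908 to 0.972 for 96156_at with 1 array left out. That of 98531_g_at was 0.179, with 0.287 as deposited and 0.169 without BXD40 and BXD42. That of 101885_at was 0.75, with 0.364 at a floor of 32 and 0.788 without BXD40 and BXD42. The correlation of 98531_g_at with 96156_at was 0.0313 and 0.328 as deposited. Ranges without BXD40 and BXD42 and as deposited were added after seeing the data. No paired analysis was possible because the labels give no replicate numbers (those used here only name the arrays of a strain in sample order) and no strain lies in both series. A block for scanner session was not run, since the scanner sheets used here name only the chip type. The cause of these changes was not tested.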
